A study of Mus musculus with 12 samples.

Results

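Imprinted genes were followed here through 48 h of treatment of mouse pre-iPSCs, which are reprogramming cells stalled short of pluripotency. The genes were taken by symbol from a list of 40 mouse genes known to be imprinted and sensitive to loss of DNA methylation and proposed with earlier results of these data known. The rule itself uses no measured value. All 40 were present among the 20325 genes of the files. The RNA-seq libraries came from 4 groups of 3 biological replicates lettered A, B and C, 12 in all. The cells received the solvent DMSO, ascorbic acid at 50 µg/ml (AA), the inhibitor pair 2i (1 µM of a MEK inhibitor with 3 µM of a GSK inhibitor), or AA+2i. All groups shared 1 origin, a clonal line picked from Nanog-GFP reporter fibroblasts after retroviral delivery of Oct4, Sox2, c-Myc and Klf4, so the groups describe that line and not pre-iPSCs in general. The line was kept on irradiated feeder cells and treated without them.

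Imprinted genes are expressed mainly from the copy inherited from 1 parent, because DNA methylation laid down in the egg or sperm marks the other copy. Most lie in clusters under a shared imprinting control region, and many regulate fetal and placental growth. The marks survive the methylation loss of the early embryo through proteins such as ZFP57, a zinc finger protein that binds a methylated hexamer, and they can be lost in cultured pluripotent cells. AA is a cofactor of the Tet enzymes, which oxidise methylated cytosine, and MEK inhibition in 2i lowers DNA methylation in embryonic stem cells. The libraries measured total RNA of each gene and carried no information on the parental copy used or on methylation. In bulk RNA, fewer cells expressing a gene and less RNA per cell cannot be told apart.

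Promoter sequence from RefSeq (GRCm38.p6) was found for 33 of the 40 genes, in 52 windows of 300 bases around annotated start sites. The ZFP57 hexamer TGCCGC, searched on both strands, was present in 13 of these windows (25.0%), against 11.6% of 32851 windows of all genes. The hexamer holds a CpG, and windows of imprinted genes were richer in CpG, with a median of 16.5 against 7 over all windows. At least 1 window held the hexamer in 12 of the 33 genes. A match describes these letters only and is not a binding site. The upstream parts of 4 promoters are shown because their genes had the changes described below, with every CpG in capitals, 5′ to 3′ on the named strand. For Peg3 and Usp29, which are transcribed in opposite directions, the 163 bases between their start sites are given on the Peg3 strand. Zdbf2 and Asb4 each had a further window that is not shown. That of Zdbf2 (chr1:63273019-63273318) held 38 CpGs and no hexamer, so the hexamers shown belong to only 1 of its windows. That of Asb4 (chr6:5390160-5390459) held 8 CpGs and no hexamer. The windows of Plagl1 (chr10:13090582-13090831, plus strand, 19 CpGs and 1 hexamer) and Zdbf2 (chr1:63200108-63200357, plus strand, 13 CpGs and 3 hexamers) are followed by those of Asb4 (chr6:5383136-5383385, plus strand, 4 CpGs, no hexamer) and Peg3 to Usp29 (chr7:6730420-6730582, minus strand, 5 CpGs, no hexamer), where the last stretch is shorter than the 250 bases of the others.
Plagl1: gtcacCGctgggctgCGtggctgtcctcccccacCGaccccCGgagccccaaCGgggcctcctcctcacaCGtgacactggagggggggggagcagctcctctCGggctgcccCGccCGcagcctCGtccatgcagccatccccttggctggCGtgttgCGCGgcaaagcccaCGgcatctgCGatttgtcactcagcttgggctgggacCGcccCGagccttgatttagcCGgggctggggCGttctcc
Zdbf2: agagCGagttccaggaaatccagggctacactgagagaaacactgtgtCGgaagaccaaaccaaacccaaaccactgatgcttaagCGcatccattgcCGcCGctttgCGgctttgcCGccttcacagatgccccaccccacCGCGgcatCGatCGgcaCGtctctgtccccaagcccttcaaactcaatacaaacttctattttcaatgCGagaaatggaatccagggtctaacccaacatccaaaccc
Asb4: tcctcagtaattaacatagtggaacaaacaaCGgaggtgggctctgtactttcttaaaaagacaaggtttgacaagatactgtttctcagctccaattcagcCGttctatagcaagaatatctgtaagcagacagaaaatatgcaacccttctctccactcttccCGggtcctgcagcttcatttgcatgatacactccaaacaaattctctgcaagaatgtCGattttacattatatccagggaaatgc
Peg3 to Usp29: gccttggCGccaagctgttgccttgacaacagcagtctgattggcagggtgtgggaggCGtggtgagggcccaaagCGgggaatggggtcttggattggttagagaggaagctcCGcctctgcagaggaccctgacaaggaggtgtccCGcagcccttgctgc

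Levels are given as TPM (a share of all transcripts, scaled for gene length, so that genes can be set side by side). Mean TPM over the 12 libraries was over 100 for 9 of the 40 genes, between 10 and 100 for 12, between 1 and 10 for 8, and 1 or under for 11. Cd81, a membrane tetraspanin of the Kcnq1 cluster, was the most abundant, with TPM of 411, 1191 and 690 in DMSO A, B and C, 477, 723 and 637 in AA, 699, 672 and 673 in 2i, and 626, 613 and 529 in AA+2i. Its DMSO B value stood apart, and the groups overlapped. Gnas, which encodes a stimulatory G protein subunit and pools its imprinted and biallelic transcripts under 1 symbol, had TPM of 289, 528 and 440 in DMSO, 288, 512 and 514 in AA, 456, 535 and 563 in 2i, and 575, 472 and 540 in AA+2i. The low values were those of DMSO A and AA A. Nap1l4, a histone chaperone, was the steadiest of the 5 most abundant genes, at 164, 138 and 160 in DMSO, 175, 161 and 149 in AA, 156, 148 and 129 in 2i, and 130, 133 and 108 in AA+2i. Peg10 and Peg3, the other two, are described with their clusters below.

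**Figure D1:**
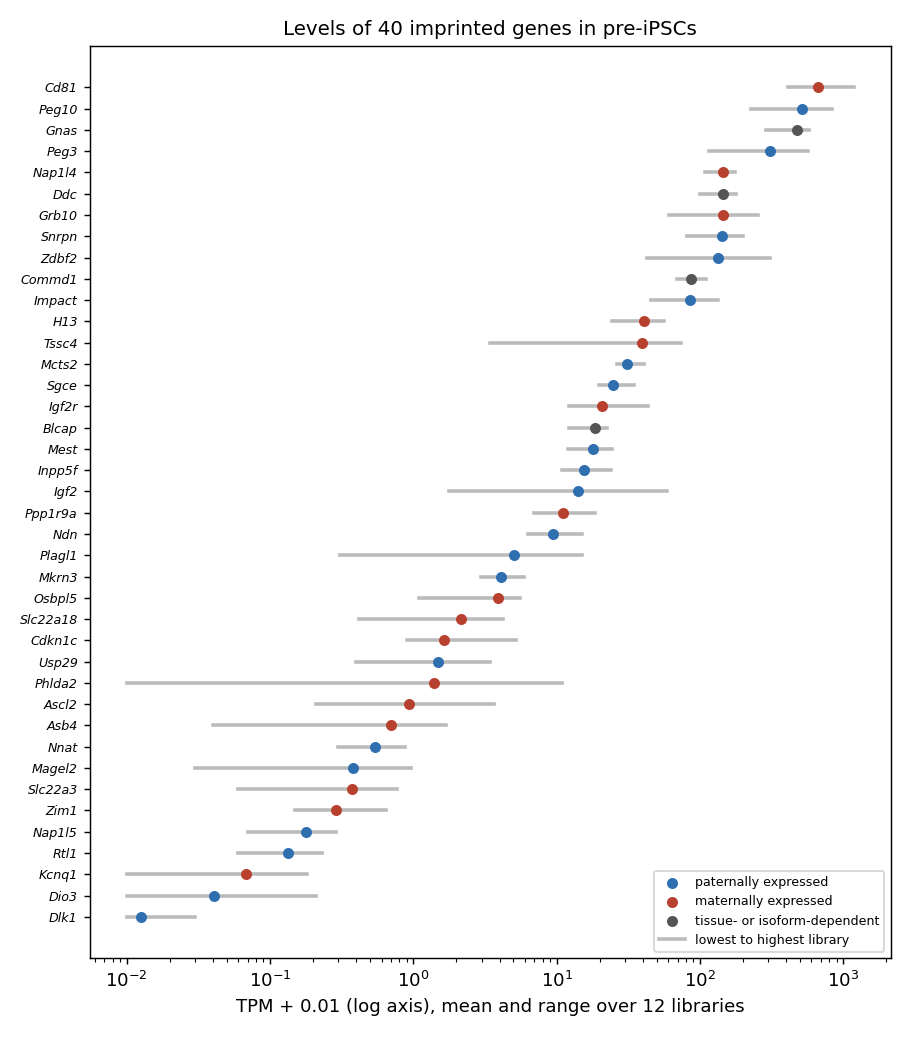
TPM of the 40 imprinted genes, as TPM + 0.01 on a log axis, with points at the mean and grey bars from the lowest to the highest of the 12 libraries; colours give the parental copy usually expressed. Cd81 (mean 662) and Peg10 (mean 517) lead, and Dlk1 and Dio3 lie at the bottom with most libraries at 0.

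At the other end was the Dlk1 to Dio3 cluster, whose paternally expressed protein-coding genes are all among the 40. Dlk1, a Notch-like ligand, had 1 read in AA B, 1 in 2i A and none in the other 10 libraries, where 3 counts would correspond to a TPM of 0.0272 to 0.0897. Dio3, which inactivates thyroid hormone, was at 0 in 9 libraries and had at most 5 counts. Rtl1, a retrotransposon-derived gene needed in the placenta, had 3.62 to 23.3 counts, none above 0.22 TPM. These 3 protein-coding genes were therefore at or near the detection limit with every treatment. Reads were aligned to NM RefSeq transcripts only, so the values do not cover non-coding RNAs of the cluster. Kcnq1, a potassium channel, and Nap1l5, a histone chaperone relative, had at most 9 and 7 counts. These 2 genes with Dlk1 and Dio3 did not reach 10 counts in 3 libraries, which left 36 of the 40 genes for testing.

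Libraries ranged from 16173322 to 54392719 expected counts, and DMSO B and AA B were the deepest pair. Libraries also differed by GC content. The mean deviation of genes over 60% GC less that of genes under 40% GC ran from -2.66 in DMSO A and -2.38 in AA A to 1.98 in AA+2i C on a log2 scale. Tssc4 of the Kcnq1 cluster (59.25% GC) followed this order, with TPM of 3.40 in DMSO A and 5.46 in AA A but 73.4 in AA+2i C. Within replicates A and C the GC deviation rose from DMSO through AA and 2i to AA+2i (-0.09, 1.09, 1.46 and 1.98 in C). In replicate B it was 0.29, 0.52, 0.32 and -0.25. Treatment and GC deviation were thus partly confounded, and fits without or with a GC correction cannot fully separate them. The labelled cell type was checked against markers. The epithelial marker Cdh1 was between 31.8 and 143 TPM in every library, while the fibroblast collagen Col1a1 was at most 2.14. Other markers on both lists went the other way. Of 16 genes on the fibroblast list, 10 reached 1 TPM, among them Zeb1 (6.25 to 38.23 TPM) and Thy1 (0.54 to 15.99 TPM). On the epithelial list, Fut4 was at most 0.12 TPM, and Krt18 ran from 0.18 in DMSO A to 20.03 in AA+2i C. S100a4 was the largest part of the summed TPM of the fibroblast list. That sum was 382 to 540 in DMSO, 268 to 367 in AA, 58.7 to 71.4 in 2i and 50.4 to 52.6 in AA+2i. The part of S100a4 in the results below was not tested.

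Differences between groups were tested with edgeR's quasi-likelihood test across 13400 genes, and a gene was called when its Benjamini-Hochberg adjusted p was under 0.05. Fold changes are log2 differences ± SE with 3 libraries per group. With AA alone, 1 of the 36 imprinted genes tested was higher and 1 lower, against 0.866% and 0.47% of all genes. With 2i alone, 1 was higher and none lower, against 1.59% and 2.83%. With AA+2i, 2 were higher and 1 lower than in DMSO, against 3.93% and 4.41%. Relative to 2i, AA+2i called none (background 0.761% higher and 0.149% lower). In that comparison 4 of the 36 had an unadjusted p under 0.05 by edgeR, beside 1277 of all 13400 genes. DESeq2 called 2 of the 36, beside 3.49% of all genes. Relative to AA, AA+2i had 4 higher and 1 lower, against 2.81% and 3.29%. The 3 AA+2i comparisons share libraries with each other, as do all 3 comparisons with DMSO. Counts of 0 to 4 genes in a set of 36 are read beside these backgrounds only as a description. Relative to DMSO, the median change of the 36 genes was -0.09 in AA, 0.17 in 2i and 0.28 in AA+2i, beside -0.01, -0.02 and -0.02 over all genes.

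**Figure D2:**
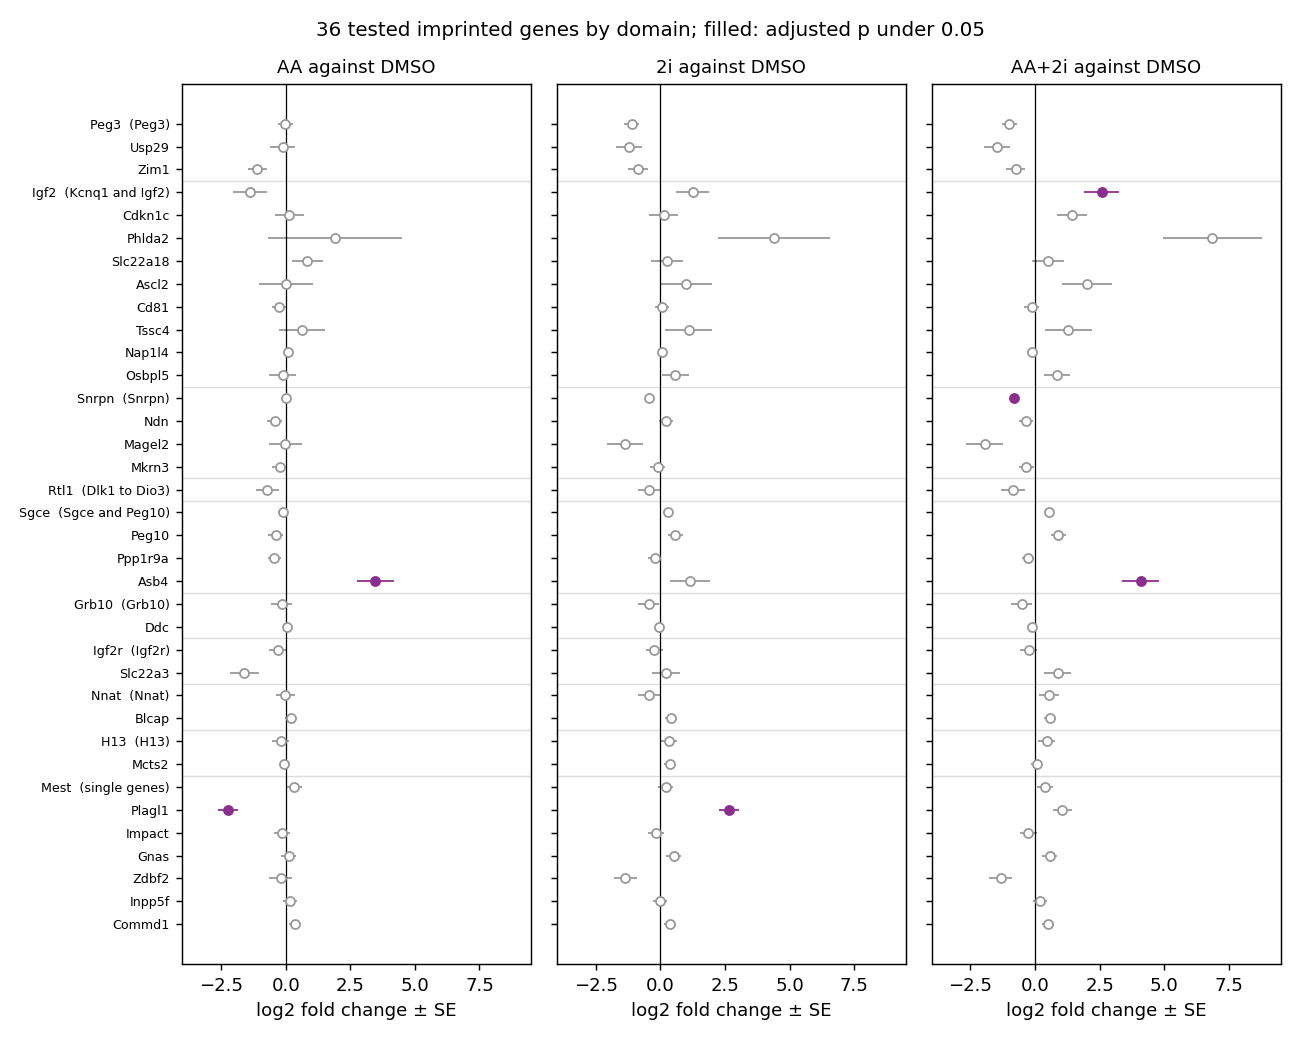
Log2 fold change ± SE of the 36 tested imprinted genes against DMSO for AA, 2i and AA+2i (3 libraries per group), ordered by cluster, whose name stands in brackets after its first gene. Filled points are called by edgeR: Asb4 and Plagl1 with AA, Plagl1 with 2i, and Igf2, Snrpn and Asb4 with AA+2i.

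Plagl1 moved in opposite directions with the separate treatments. It encodes a paternally expressed zinc finger transcription factor that restrains proliferation (chromosome 10, 12810497 to 12851500, plus strand, mm9). Its TPM was 2.60, 2.01 and 2.49 in DMSO, 0.53, 0.30 and 0.68 in AA, 14.8, 9.51 and 15.1 in 2i, and 3.35, 3.91 and 5.39 in AA+2i. No group overlapped another, and the order was AA, DMSO, AA+2i, 2i. It fell by 2.22 ± 0.38 with AA, a 4.67-fold drop (edgeR adjusted p = 0.0175), and rose by 2.65 ± 0.38 with 2i, or 6.28-fold (adjusted p = 0.00299). When both were given, Plagl1 was 3.28 ± 0.40 above AA alone (edgeR adjusted p = 0.00095). The differences of AA+2i from 2i (-1.59 ± 0.36, edgeR adjusted p = 0.0772) and from DMSO (1.06 ± 0.36, adjusted p = 0.102) were not called. DESeq2 called both (adjusted p = 0.00171 and 0.0406), as did edgeR with a correction for GC content (adjusted p = 0.0455 and 0.024). The interaction was 0.63 on the log2 scale with an edgeR adjusted p of 1, so the AA difference was not shown to change in the presence of 2i. Both calls involving 2i held when any 1 library was left out. The AA call was lost without AA B (adjusted p = 0.0806), DMSO A (0.0525) or DMSO C (0.0558), and with only the 2 groups fitted no gene in the table was called.

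Asb4 followed AA whether or not 2i was present. It is a maternally expressed gene of the Sgce and Peg10 cluster that encodes an ankyrin repeat protein of ubiquitin ligases (chromosome 6, 5333386 to 5383022, plus strand, mm9). Read numbers were low, at 5, 2 and 3 in DMSO, 35, 72 and 50 in AA, 12, 7 and 1 in 2i, and 56, 67 and 43 in AA+2i. In TPM this was 0.19, 0.03 and 0.11 in DMSO, 1.11, 0.78 and 1.22 in AA, 0.35, 0.17 and 0.03 in 2i, and 1.67, 1.62 and 0.97 in AA+2i. The 6 libraries with AA lay above the 6 without it. Asb4 rose by 3.48 ± 0.71 with AA (edgeR adjusted p = 0.0388) and by 4.09 ± 0.71 with AA+2i relative to DMSO (adjusted p = 0.0055). Its difference between AA+2i and 2i, 2.95 ± 0.64, missed the threshold (edgeR adjusted p = 0.0648). The AA call was lost without DMSO B (adjusted p = 0.141), DMSO C (0.103), AA A (0.058), AA B (0.0929) or AA C (0.124), and held without DMSO A (0.0478). The AA+2i call held without any 1 library. With so few DMSO reads the size of both changes depends on the prior count of the fit. Among the libraries without AA, only 2i A reached the minimum count of the filter. Asb4 was therefore tested only through the groups where it was high, and not when every library had to reach that minimum.

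The neighbours of Asb4 on chromosome 6 had other orders of groups. Peg10, a retrotransposon-derived gene needed for the placenta (4697306 to 4710514, plus strand, mm9), had TPM of 446, 317 and 535 in DMSO, 398, 228 and 369 in AA, 746, 448 and 553 in 2i, and 838, 742 and 584 in AA+2i. All AA+2i libraries were above all AA libraries. The difference was 1.29 ± 0.30 (edgeR adjusted p = 0.0296), and that from DMSO, 0.91 ± 0.30, was not called (adjusted p = 0.0953). The call was lost without AA B (adjusted p = 0.121), AA C (0.0645), AA+2i A (0.1), AA+2i B (0.0809) or AA+2i C (0.0693). Sgce, the sarcoglycan gene that starts beside Peg10 on the other strand, differed in the same comparison by 0.65 ± 0.18 without a call (edgeR adjusted p = 0.0642). Ppp1r9a, a neuronal actin-binding protein gene of the same cluster, ranged from 6.89 to 18.4 TPM and was not called. Of the 4 genes of the cluster, all 4 had a positive difference between AA+2i and AA, also with the GC correction, and 1 was called.

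Igf2, the paternally expressed fetal growth factor, was lowest with AA and highest with AA+2i (chromosome 7, 149836673 to 149852721, minus strand, mm9). TPM was 5.82, 5.24 and 9.28 in DMSO, 1.84, 1.77 and 4.0 in AA, 9.54, 7.29 and 24.5 in 2i, and 23.1, 18.8 and 59.0 in AA+2i. Replicate C was the highest in each group, the AA libraries lay below all DMSO libraries, and 2i overlapped both DMSO and AA+2i. Within each letter the order of groups was AA, DMSO, 2i, AA+2i. The rise with AA+2i relative to DMSO was 2.57 ± 0.68, or 5.95-fold (edgeR adjusted p = 0.0396), and relative to AA it was 3.95 ± 0.72, or 15.4-fold (adjusted p = 0.0084). The separate differences with AA (-1.37) and with 2i (1.25) were not called in the main fit. The interaction was 2.70 ± 0.92, with an unadjusted p of 0.0137 in the edgeR fit and an edgeR adjusted p of 1. With the replicate letter as a block, edgeR called the AA and 2i differences (adjusted p = 0.00706 and 0.0121) and also the interaction. The rise relative to AA held without any 1 library. The rise relative to DMSO was lost without DMSO A (adjusted p = 0.118), DMSO B (0.123), DMSO C (0.0601), AA+2i A (0.0571) or AA+2i C (0.18), and without AA+2i C its size was 1.73. With a correction for GC content the same difference was 1.86 and stayed called (edgeR adjusted p = 0.0277).

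Partners of Igf2 in the same signalling pathway went the other way or were not called. Igf1r, the receptor through which IGF2 signals, fell from a mean TPM of 23.8 ± 12 (SD, n = 3) in DMSO to 6.91 ± 2.58 in 2i and 5.37 ± 2.15 in AA+2i, with log2 changes of -1.58 ± 0.38 and -1.93 ± 0.38 (edgeR adjusted p = 0.0401 and 0.0105). Igfbp3, a binding protein for IGFs, fell from 82.4 ± 19.1 to 16.1 ± 1.13 in 2i and 22.0 ± 2.03 in AA+2i, by 2.15 and 1.67 on the log2 scale (edgeR adjusted p = 0.000575 and 0.00119). Igfbp5 rose with AA by 1.54 ± 0.31 from a mean of 0.66 TPM (edgeR adjusted p = 0.0364). Those were the called genes of 12 tested in a list of 13 pathway partners relative to DMSO. The shares of all genes were 0.866% higher with AA, 2.83% lower with 2i and 4.41% lower with AA+2i. Among the imprinted genes of the pathway, Igf2r, the receptor that clears IGF2, ranged from 12.2 to 43.3 TPM with the maximum in DMSO B. Grb10, an adaptor that restrains receptor signalling, ranged from 61.0 to 254 TPM. Neither was called in any comparison.

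Slc22a3, an organic cation transporter of the Igf2r cluster that is maternally expressed in the placenta (chromosome 17, 12612838 to 12700570, minus strand, mm9), had few reads. Its counts were 13, 37 and 6 in DMSO, 3, 19 and 2 in AA, 19, 21 and 6 in 2i, and 14, 27 and 36 in AA+2i. In TPM the AA libraries, at 0.09, 0.19 and 0.05, lay under the DMSO libraries at 0.45, 0.47 and 0.21. The 2i libraries, at 0.52, 0.48 and 0.17, overlapped both AA and AA+2i, which was at 0.39, 0.61 and 0.76. AA+2i exceeded AA by 2.48 ± 0.56 (edgeR adjusted p = 0.0253). This call was lost without AA A (adjusted p = 0.0708), AA C (0.0797), AA+2i B (0.0671) or AA+2i C (0.101). The interaction, 2.25 ± 0.77, had an edgeR adjusted p of 1.

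The other genes of the neighbouring Kcnq1 and Igf2 clusters on chromosome 7 were not called in any comparison. With Igf2 included, all 9 tested genes had a positive change with 2i, from 0.06 to 4.41 with a median of 0.57. With AA+2i relative to DMSO it was 7 of 9, with a median of 1.30. The medians over all genes were -0.02 in both comparisons. With the GC correction 6 of 9 were positive with 2i, and the AA+2i median was 0.34. Phlda2, which restrains placental growth, had the largest difference in the set, 6.86 ± 1.91 with AA+2i, with an edgeR adjusted p of 0.0503. It reached 10 counts in only 3 libraries, 1 of 2i and 2 of AA+2i, so it was tested only through the groups where it was high. Its counts were 0, 1 and 0 in DMSO, 0, 0 and 5 in AA, 0, 4 and 15 in 2i, and 12, 6 and 102 in AA+2i, so that AA+2i C held 102 of the 120 reads of its group. Without that library the difference was 4.75 (edgeR adjusted p = 0.236). In TPM these were 0.00, 0.06 and 0.00 in DMSO, 0.00, 0.00 and 0.58 in AA, 0.00, 0.46 and 2.20 in 2i, and 1.69, 0.69 and 10.9 in AA+2i. Summed over libraries, 120 reads in AA+2i against 1 in DMSO gave a ratio of 156 after division by the summed library totals, with an exact 95% interval of 27.4 to 6202 that covers counting error only. Its difference with AA turned negative, from 1.90 to -1.75, without AA C.

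AA+2i C was also the highest library for Cdkn1c (5.20 TPM, 0.89 to 1.73 in the other 11), which inhibits cyclin-dependent kinases, and for Ascl2 (3.65 TPM, 0.20 to 2.06 elsewhere), a trophoblast transcription factor. Of the trophoblast markers, named after their values were seen, Hand1 and Krt7 peaked there at 7.83 and 3.42 TPM. Cdx2 also peaked there, at 0.80 TPM (at most 0.53 elsewhere), while Gata3 (1.23 TPM) and Elf5 (0.42 TPM) peaked in AA C. Eomes, a T-box factor on the same list, fell by 1.03 ± 0.23 with 2i and by 1.17 ± 0.23 with AA+2i relative to DMSO (edgeR adjusted p = 0.0293 and 0.0106). Tpbpa and Prl3d1, also on that list, were at 0 in every library. The summed TPM of the list was 3.27 to 5.22 in DMSO, 3.97 to 9.61 in AA, 1.95 to 4.83 in 2i and 4.21 to 14.2 in AA+2i. AA+2i C was the library with the highest GC deviation too, and Cdkn1c (59.658% GC) and Ascl2 (59.491% GC) were the most GC-rich of the 36 genes. With the GC correction, the AA+2i difference was 0.09 in place of 1.43 for Cdkn1c and 1.05 in place of 2.00 for Ascl2, and that of Phlda2 was 6.32.

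**Figure D3:**
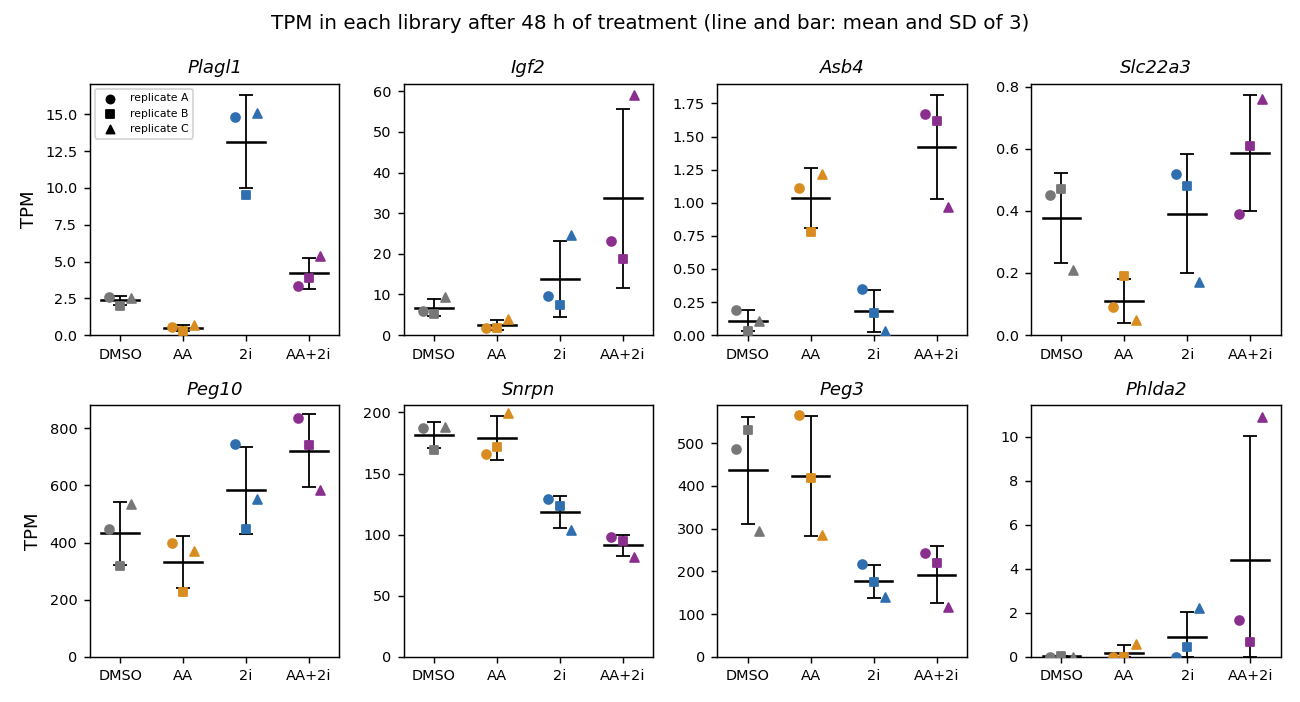
TPM in each library (circles, squares and triangles for replicates A, B and C) of 8 imprinted genes in the 4 groups, with the mean and SD of 3 libraries and lower bars ending at 0. The groups of Plagl1 are apart, Asb4 is higher in both groups with AA, Snrpn and Peg3 are lower in both groups with 2i, and replicate C lies far above A and B for Igf2 and Phlda2 in AA+2i.

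Snrpn was the 1 imprinted gene called lower with AA+2i. It is paternally expressed and encodes a protein of the splicing machinery (chromosome 7, 67127388 to 67285105, minus strand, mm9). TPM was 188, 169 and 188 in DMSO, 166, 172 and 200 in AA, 129, 124 and 104 in 2i, and 97.8, 94.5 and 81.7 in AA+2i. DMSO and AA overlapped, both lay above 2i, and 2i lay above AA+2i. Snrpn fell by 0.80 ± 0.17 relative to DMSO, to 0.575 of its level (edgeR adjusted p = 0.0155), and by 0.80 ± 0.17 relative to AA (adjusted p = 0.0186). The change with 2i alone was -0.44 ± 0.17 and was not called (edgeR adjusted p = 0.217). The GC correction ended both calls, at -0.49 against DMSO (edgeR adjusted p = 0.155) and -0.65 against AA (adjusted p = 0.078), and both were also lost with only the 2 groups fitted. The call against DMSO was lost too without AA+2i A (adjusted p = 0.0558), AA+2i B (0.0655) or AA+2i C (0.0613). The call against AA held without AA A (adjusted p = 0.02) and was lost without AA B (0.0585), AA C (0.0755), AA+2i A (0.0681), AA+2i B (0.0823) or AA+2i C (0.0697).

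All 4 genes of the Snrpn cluster, which in people is the Prader-Willi region, had a negative difference between AA+2i and DMSO, with a median of -0.57 and 1 called. The 4 signs were the same with the GC correction. Magel2, a regulator of ubiquitin ligases, had counts of 14, 99 and 18 in DMSO, 14, 58.5 and 54 in AA, 1, 14 and 15 in 2i, and 6.11, 6 and 10 in AA+2i. In TPM it was at 0.36, 0.95 and 0.46 in DMSO, 0.31, 0.45 and 0.92 in AA, 0.02, 0.24 and 0.33 in 2i, and 0.13, 0.10 and 0.16 in AA+2i. No AA+2i library reached the lowest DMSO or AA library. Its differences of -1.36 ± 0.70 with 2i and -1.94 ± 0.72 with AA+2i were not called (edgeR adjusted p = 0.129 for AA+2i), and with the GC correction the second was -2.62 and called (adjusted p = 0.00367). Ndn, a growth-restraining relative of Magel2, ranged from 6.31 to 15.0 TPM, and Mkrn3, a ring finger protein gene, from 2.95 to 5.95.

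In the Peg3 cluster, at the other end of chromosome 7, Peg3 and Usp29 were lower than DMSO in both groups with 2i without passing the main test. Peg3 encodes a paternally expressed zinc finger protein, and its TPM was 486, 530 and 295 in DMSO, 566, 419 and 285 in AA, 217, 175 and 140 in 2i, and 242, 220 and 115 in AA+2i. The 6 libraries with 2i lay below the 6 without it. The difference was -1.11 ± 0.30 with 2i, to 0.463 of the DMSO level (edgeR adjusted p = 0.0639), -0.99 ± 0.30 with AA+2i (adjusted p = 0.0675) and -0.02 with AA. DESeq2 called both at an adjusted p of 0.00885 and 0.0176, and edgeR with the GC correction gave -0.99 and -0.77 (adjusted p = 0.0092 and 0.0218). Usp29, the ubiquitin protease gene that starts 163 bases away in the opposite direction, was at 1.61 to 3.23 TPM in DMSO, 3.42, 1.85 and 0.94 TPM in AA, and 0.39 to 1.25 TPM in the 6 libraries with 2i, so that AA C lay within their range. It had differences of -1.21 ± 0.50 with 2i and -1.46 ± 0.50 with AA+2i (edgeR adjusted p = 0.247 and 0.103). Zim1, the maternally expressed neighbour, was at 0.14 to 0.64 TPM and had the third largest interaction, 1.2, with an edgeR adjusted p of 1. Its TPM was 0.42, 0.64 and 0.29 in DMSO, 0.24, 0.22 and 0.16 in AA, 0.27, 0.16 and 0.23 in 2i, and 0.14, 0.32 and 0.23 in AA+2i.

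Zdbf2, a paternally expressed gene on chromosome 1 singled out after its values were seen, had the same order of groups as Peg3. TPM was 288, 212 and 122 in DMSO, 307, 129 and 107 in AA, 106, 63.5 and 48.5 in 2i, and 90.1, 89.0 and 42.5 in AA+2i. The 6 libraries with 2i lay below the 6 without it, with AA C (107) and 2i A (106) nearly meeting. The differences of -1.35 ± 0.45 with 2i and -1.32 ± 0.45 with AA+2i were not called by edgeR (adjusted p = 0.137 and 0.0984). With the GC correction they were -1.03 and -0.83 and were called (edgeR adjusted p = 0.00596 and 0.013).

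The GC correction moved the 36 genes by their base composition. For the 11 genes over 55% GC, the median AA+2i difference was 0.85 without and 0.09 with the correction, and for the 8 genes under 46% it was -0.51 and -0.25. The sign changed for 3 genes (Impact, Gnas and H13) in that comparison and for 7 genes each with AA and with 2i. The number called with AA+2i relative to DMSO was 3 without and 12 with the correction, of which 2 were shared. Over all genes the share called with the correction was 19.7%, against 3.93% higher and 4.41% lower without it.

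**Figure D4:**
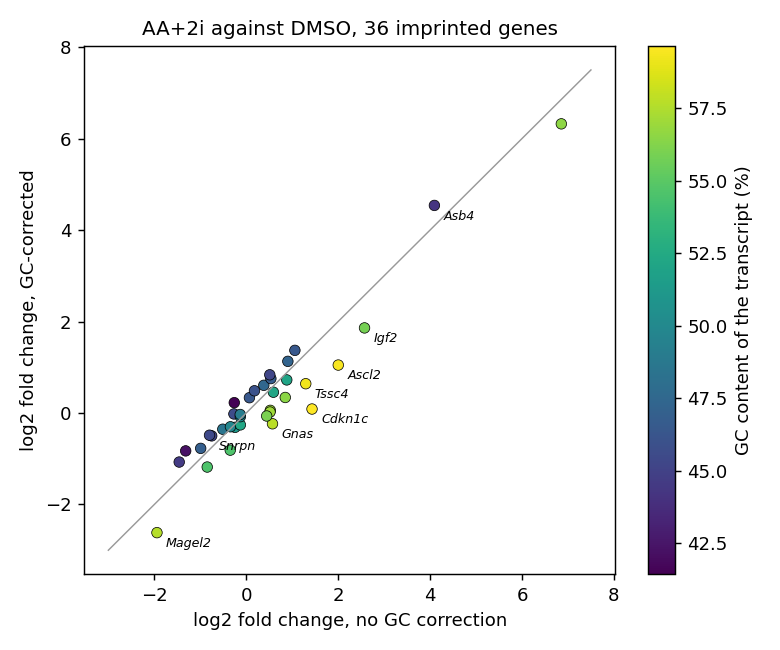
Log2 fold change of AA+2i against DMSO for the 36 tested imprinted genes without (horizontal axis) and with (vertical axis) correction for GC content, coloured by GC percent; the line marks equal values. GC-rich genes such as Cdkn1c (1.43 without, 0.09 with) lie below the line, and Asb4, Magel2 and Igf2 keep their direction.

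Grouped by the parental copy usually expressed, the 17 tested paternal genes had medians of -0.12 in AA, -0.11 in 2i and -0.26 in AA+2i relative to DMSO. The 15 tested maternal genes had medians of -0.11, 0.23 and 0.52. In AA+2i, 8 of the 17 paternal genes and 9 of the 15 maternal genes had a positive difference. The called paternal genes were Igf2, which rose, and Snrpn, which fell, and the called maternal gene was Asb4, which rose. The 4 genes listed apart for tissue- or isoform-dependent or mixed imprinting (Gnas, Ddc, Blcap and Commd1) had no call in any comparison. The parental copy used in these cells was not measured, also for genes such as Slc22a3 that are maternally expressed in the placenta. With the GC correction the AA+2i medians were 0.06 for the paternal and 0.02 for the maternal genes, so the separation of the groups was not kept. For the interaction of AA and 2i, edgeR called none of the 36 genes (background 0.0149% higher and 0% lower). An unadjusted edgeR p under 0.05 was found for 2 of the 36, beside 309 of all 13400 genes. DESeq2 called none of the 36, beside 0.194% of all genes.

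Of 48 further genes reported as imprinted in mice, 38 were in the files and 28 were tested. None was called with AA, 4 fell with 2i, and 2 rose and 4 fell with AA+2i relative to DMSO. The shares of all genes were 2.83% lower with 2i, and 3.93% higher and 4.41% lower with AA+2i. Axl, a receptor tyrosine kinase, fell from 216 ± 88.4 TPM (SD, n = 3) in DMSO to 59.7 ± 3.61 in 2i and 39.5 ± 8.04 in AA+2i, by 1.62 and 2.21 on the log2 scale (edgeR adjusted p = 0.00257 and 0.000357). Slc38a4, an amino acid transporter, fell by 2.95 ± 0.52 with 2i (edgeR adjusted p = 0.00902), and Qpct, a glutaminyl cyclase, by 1.62 ± 0.24 (adjusted p = 0.00368). Calcr, the calcitonin receptor near Peg10, fell by 3.36 ± 0.84 with 2i from a DMSO mean of only 0.447 TPM (edgeR adjusted p = 0.0473). In AA+2i relative to DMSO, Calcr, Peg12 and Tspan32 also fell, and Pon2 and Pon3, paraoxonase genes of the Peg10 region, rose by 0.72 ± 0.18 and 1.19 ± 0.27 (edgeR adjusted p = 0.0317 and 0.0217). Qpct was higher in AA+2i than in 2i by 1.31 ± 0.24 (edgeR adjusted p = 0.0295).

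Among 22 tested genes of imprint maintenance and DNA methylation, Zfp57, whose product binds the hexamer described above, fell. Its TPM was 307, 545 and 390 in DMSO, 293, 290 and 354 in AA, 166, 171 and 188 in 2i, and 148, 186 and 176 in AA+2i. The 6 libraries with 2i lay below the 6 without it, with changes of -0.99 ± 0.23 in both comparisons with DMSO (edgeR adjusted p = 0.0334 for 2i and 0.0218 for AA+2i). Dppa3, which protects imprints in the zygote, rose with AA+2i from 0.16, 0.06 and 0.30 TPM in DMSO to 9.18, 12.8 and 19.4 (log2 change 6.75 ± 0.86, edgeR adjusted p = 0.00103). It was at 0.80 to 3.20 TPM in AA and 0.12 to 0.53 in 2i, and AA+2i was called higher than each. No other gene of that list was called. Of all genes, 1.59% were called higher and 2.83% lower with 2i, and 3.93% and 4.41% with AA+2i relative to DMSO. Tet1, which oxidises methylated cytosine, was not called and is named after its values were seen. It was at 5.3 to 17.1 TPM in the 6 libraries with 2i and 20.6 to 65.5 TPM in the 6 without it. Those libraries overlapped for Tet2 (8.53 to 25.31 TPM with 2i, 13.5 to 38.36 without) and Tet3 (4.74 to 9.27 and 7.48 to 16.59). Of the 22 genes, 16 had a negative change with 2i and 15 with AA+2i relative to DMSO.

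Pluripotency, epithelial and lineage markers moved with the same treatments. Nanog was at 2.93 to 7.14 TPM in DMSO, 16.8 to 19.6 in AA, 4.96 to 6.92 in 2i and 31.7 to 40.9 in AA+2i. Of 12 pluripotency genes tested, 5 rose with AA, none rose and 2 fell with 2i, and 7 rose and 1 fell with AA+2i relative to DMSO. Of 5 epithelial genes tested, 1 rose with AA and 2 with AA+2i. Of 13 fibroblast genes tested, S100a4 and Fbln5 fell with 2i and with AA+2i, and Col3a1, never at 1 TPM, rose with AA+2i. The summed TPM of primitive endoderm markers stayed between 2.22 and 4.54 in all groups, and that of neural markers between 52.6 and 90.6. Nes, an intermediate filament gene of the neural list, fell with AA+2i by 1.01 ± 0.18, from a mean of 57.3 to 24.5 TPM (edgeR adjusted p = 0.00557). The part of these shifts in the imprinted gene results was not tested.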

How the data were processed

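RNA of 12 pre-iPSC cultures (4 treatments, replicates A to C) was sequenced as single-end libraries without strand information. The authors trimmed reads, aligned them with Bowtie to mm9 annotated with NM RefSeq transcripts only, and ran RSEM 1.2.4, whose deposited expected counts and TPM per gene were used here. The deposited FPKM column served only to rebuild 1 malformed TPM cell of a gene outside the set. Antisense partners (Airn with Igf2r, Kcnq1ot1 with Kcnq1) and near-identical copies (Mcts2 with Mcts1) cannot be told apart in such counts, and Gnas pools its transcripts.

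Expected counts were rounded. Genes with at least 10 counts in 3 libraries (13400 of 20325) were fitted in edgeR 4.0.16 (R 4.3.3) by the quasi-likelihood test, with RLE factors and 1 mean per group over all 12 libraries (8 residual degrees of freedom), tested on simulated data. P-values measure the spread between these biological replicates. EBSeq, the tool named by the study, was not used here. Alternatives were TMM factors, DESeq2 1.42.0, limma 3.58.1 on log2(TPM + 1) and log2(TPM + 0.1), other count filters, only the groups compared, a replicate block, a loess correction for GC content (known for 13300 tested genes), and leaving out libraries. The 40 genes and all lists were chosen with earlier results of these data known. Values in every library are given for genes called in any of 6 comparisons, for the 3 largest changes in each, and for the 5 highest mean TPM. Gene positions are mm9 and promoter windows GRCm38.p6, from separate annotations.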

Additional observations from a re-analysis of the deposited data

How the results depend on the processing

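Under TMM factors the number of imprinted genes called was that of the reported fit in all 6 comparisons. Of the 36 tested genes, the 14 whose highest group mean TPM was in AA+2i became 16 on RLE-scaled CPM. Other settings moved counts as follows, and the cause was not tested. For AA against DMSO, 2 calls became 1 with at least 10 counts in every library, where Asb4 was not tested. They became 0 with only the 2 groups fitted. For 2i against DMSO, 1 became 3 by DESeq2 and 4 with GC correction. For AA+2i against DMSO, 3 became 10 by DESeq2 and 12 with GC correction. For AA+2i against 2i, 0 became 2 by DESeq2, by GC correction and by limma at both pseudocounts. For AA+2i against AA, 5 became 8 by DESeq2, 11 with GC correction and 3 with only the 2 groups fitted.

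Replicate letters were not taken as pairing the libraries. Deviations of same-letter libraries from their group means correlated at a mean r of 0.40, but from -0.59 to 0.89, with 15 of 18 pairs over 0.1. The mean between letters was -0.20, and 9 of 12 libraries correlated best with their own letter. Deviations cancel out over the letters of a group, so the mean between letters is not an independent value to compare with. With the replicate block, calls were 3 for AA, 5 for 2i and 15 for AA+2i against DMSO, 3 for AA+2i against 2i, 11 against AA, and 1 (Igf2) for the interaction. The shares of all genes called were 4.43%, 13.3% and 31.6% against DMSO. They were 4.52% for AA+2i against 2i, 14.9% against AA and 0.03% for the interaction. The block called Igf2 in all 6 comparisons (edgeR adjusted p = 0.00706 for AA and 0.0121 for 2i). With GC correction and the replicate block together, calls in the same order of comparisons were 4, 11, 17, 4, 13 and 1. The shares of all genes were then 10.9%, 24.7%, 36.2%, 11.5%, 27.6% and 0.195%.

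Leaving out libraries gave 0 to 1 calls for AA, 0 to 1 for 2i, 0 to 3 for AA+2i against DMSO, 0 for AA+2i against 2i, 0 to 4 against AA and 0 for the interaction. In the same order, the shares of all genes called were 0 to 1.24%, 0.007 to 3.40%, 0.134 to 7.37%, 0 to 0.425%, 0.052 to 4.99% and 0 to 0.022%. Without replicate B no imprinted gene was called in any comparison, and all genes called numbered 0, 1, 18, 0, 7 and 0. The Phlda2 difference with AA ran from -2.11 to 4.15 when libraries were left out, and was reversed without replicate C (-2.11) and without AA replicate C (-1.75). Depth limits Asb4, Phlda2, Slc22a3 and Magel2, each with under 100 reads in any library except Phlda2 in AA+2i C.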
